A study of Mus musculus with 8 samples.

Results

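The neutrophil granule protein genes described here were Elane, Prtn3, Mpo, Ctsg, Lyz1, Lyz2, Camp, Ltf, S100a8 and S100a9, 10 of the 21887 protein-coding mouse genes in the RefSeq table used. They were listed by name, for the proteins they encode, with earlier results of these data known. For each gene the called binding sites of the transcription factor PU.1 were taken from the gene body plus 10 kb on either side, on the mm10 build. Where 2 of these windows overlapped, as at Elane and Prtn3 and at Lyz1 and Lyz2, a shared site is described once, at the nearer gene. Counts and medians set against all genes took each gene's whole window, as was done for every gene, and the values with shared sites given once stand beside them where they differ.

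Sites came from ChIP-seq, the sequencing of DNA bound by an immunoprecipitated protein, in AML246, a mouse acute myeloid leukaemia cell line, with 1 library per time point. In the restoration series, PU.1 was restored with doxycycline (Dox, 0.1 ug/mL), and libraries were titled Day 0 (untreated), Day 4, Day 8 and Day 12. In the knockdown series, Dox was withdrawn at day 12, and libraries were titled Day 12- 4, Day 12- 8 and Day 12- 12. All cells were grown in IL-3. The treatment labels of these last 3 libraries differ from their titles: Day 12- 4 is labelled 12 days Dox and Cd11b-high viable cells, Day 12- 8 is labelled 4 days off Dox, and Day 12- 12 is labelled 8 days off Dox. All other libraries were labelled as total viable cells, and the titles are used as names below. A further sample, from 12 days off Dox by its label, is not analysed here. The lists hold positions of binding and no expression values, so neither the cell type nor the PU.1 level could be checked against markers.

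Neutrophils carry ready-made antimicrobial proteins in granules that form in order as the cell matures. Azurophil granules form first, in promyelocytes, and hold myeloperoxidase and the serine proteases elastase, proteinase 3 and cathepsin G. Specific granules follow and hold lactoferrin and the cathelicidin precursor, while lysozyme is found in several granule types. S100a8 and S100a9 form calprotectin, a metal-binding protein that is stored mainly in the cytosol. PU.1 is a known regulator of this programme together with C/EBP and RUNX factors, and it binds DNA at purine-rich sites around the letters GGAA.

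The 7 lists held 8043, 57424, 33962 and 86271 called summits at days 0, 4, 8 and 12, and 9868, 21377 and 148415 in Day 12- 4, Day 12- 8 and Day 12- 12. A summit is the 1-base top of a called peak, and its score is the authors' own, a −log10 q-value as far as its range shows. Scores depend on the sequencing depth and the control of each list, both unknown here. They can be ranked within a list, but a score from 1 library set beside that from another is no measure of changed binding. With 1 library per time point there was no replicate error and no test. A peak in such a bulk library also cannot separate more cells with bound PU.1 from more binding per cell.

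At day 0, 1 of the 10 granule genes had a summit in its window, against 36.8% of all protein-coding genes in the same list. All 10 had one at day 4, against 69.8% of all genes. At day 8 the count was 9 of 10, against 61.7%, and at day 12 it was again 9 of 10, against 77.1%. The gene without a site was Camp at day 8 and S100a9 at day 12. In the library titled Day 12- 4, 7 of 10 had a site, against 34.8% of all genes. In Day 12- 8 the count was 4 of 10, against 61.8%, and in Day 12- 12 it was 8 of 10, against 78.9%. With each shared site given once, the counts were 5 of 10 in Day 12- 4, where Prtn3 and Lyz1 had only sites nearer to Elane and Lyz2, and 7 of 10 in Day 12- 12, with no change in the other 5 libraries. Day 0 and Day 12- 8 stood under the share of all genes and days 4 and 8 above it. The Day 12- 4 count stood above the share of all genes with full lists, but with summits scoring at least 10 it was 2 of 10, against 21.4%. The windows of neighbouring members overlap, so these counts do not rest on 10 separate loci.

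Taking each gene's highest score, with 0 for no site, the median over the 10 granule genes was 81.1 at day 4, against 15.6 over all protein-coding genes. At day 8 the medians were 63.1 for the granule genes and 11.5 for all genes. At day 12 the order turned, with 21.4 for the granule genes and 33.4 for all genes. It was 4.85 against 0 in the library titled Day 12- 4, 0 against 6.08 in Day 12- 8 and 16.7 against 10.7 in Day 12- 12. Both medians were 0 at day 0. The medians over all genes took genes of any length, and none limited to genes of the members' lengths is given here. These medians count a shared summit for both neighbours. With each given once, the median over the granule genes was 51.8 at day 4, 45.8 at day 8 and 2.11 in Day 12- 4, and was the same as before in the other 4 libraries.

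**Figure D1:**
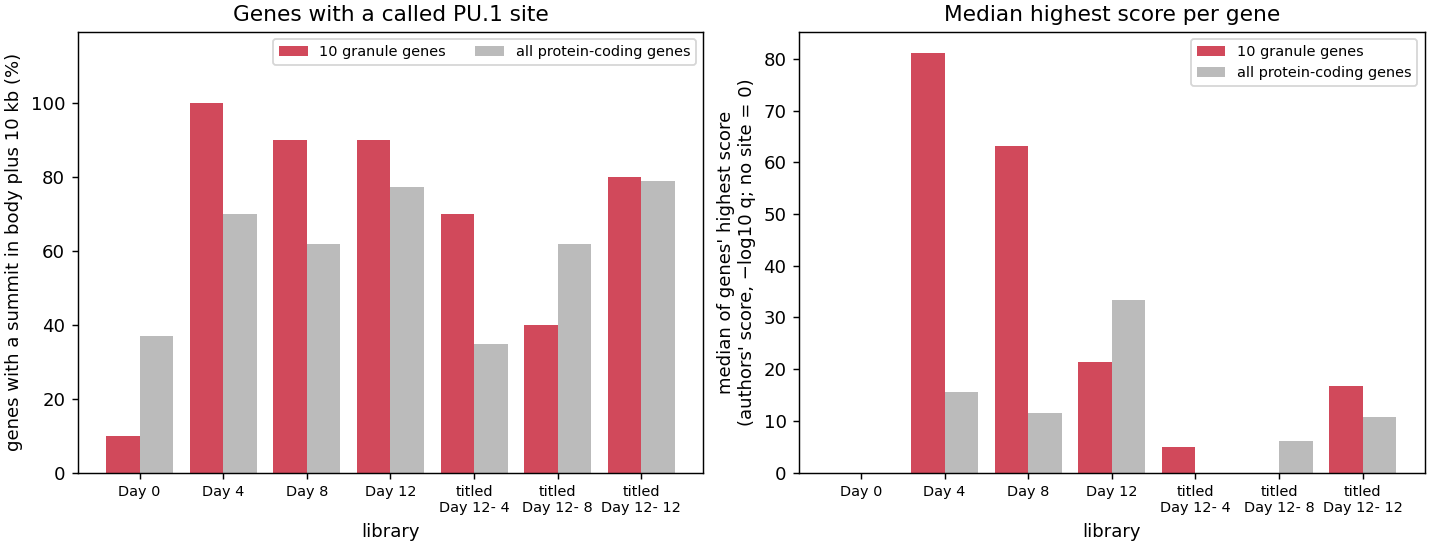
Left, the percentage of the 10 granule genes and of all 21887 protein-coding genes with a PU.1 summit in the gene body plus 10 kb, by library; right, the median of the genes' highest scores (authors' score, −log10 q, 0 for no site), with a shared summit counted for both neighbours. The granule bars stand highest at day 4 in both panels, at 10 of 10 genes and a median of 81.1, and fall under the bar of all genes in the right panel at day 12 and in Day 12- 8.

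When each list was cut to its 8043 highest-scoring summits, the length of the day 0 list, 5 of 10 granule genes kept a site at day 4, against 25.5% of all genes. At day 8, 7 of 10 kept one, against 29.2%. At day 12, Elane and Prtn3 alone kept one, 2 of 10 against 35.2%. The counts were 5 of 10 against 31.0% in Day 12- 4, 3 of 10 against 37.8% in Day 12- 8, and 5 of 10 against 31.0% in Day 12- 12. With shared summits given once, Mpo, Lyz1, Ltf and S100a8 were the 4 genes at day 4, and the counts were 5 at day 8 and 4 in Day 12- 4.

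Summits also lay in the promoters themselves. The promoter window ran from 250 bases before to 50 after the start of each gene, in RefSeq's GRCm38.p6 sequences, which share mm10 coordinates. At day 4, 7 of the 10 granule promoters held a summit (Elane, Prtn3, Mpo, Ctsg, Lyz2, S100a8 and S100a9), against 15.0% of the 17492 protein-coding genes with a listed promoter. At day 8 it was 6 of 10 against 18.3%, and at day 12 it was 5 of 10 (Elane, Prtn3, Lyz2, Camp and Ltf) against 31.0%. No granule promoter held a summit at day 0, against 8.60%, or in Day 12- 8, against 18.7%. In Day 12- 4 the count was 3 of 10 (Elane, Lyz2 and S100a8) against 8.71%, and in Day 12- 12 it was 6 of 10 (Elane, Prtn3, Mpo, Camp, Ltf and S100a8) against 20.6%. Lyz1 was the single member with no promoter summit in any of the 7 libraries.

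The upstream sequences of 7 members are shown because 6 of them held a called summit and differ in where it lay relative to PU.1-type stretches, and the other, Lyz1, is the close copy of Lyz2 that had no promoter summit. Each is the 250 bases before the gene's start on its own strand, 5′ to 3′, from RefSeq GRCm38.p6. Capitals mark AGGAAG or its reverse complement CTTCCT, an ETS-type motif picked after the sequences were seen. Ctsg, Ltf and S100a9 also held promoter summits and are not shown. From the centre of the nearest AGGAAG, the Ctsg summits lay 56.5 and 42.5 bases away at days 4 and 8. The Ltf summits lay 93.5 and 106.5 bases away at day 12 and in Day 12- 12, and S100a9 has no match.
Elane, chr10:79886062-79886311, plus strand: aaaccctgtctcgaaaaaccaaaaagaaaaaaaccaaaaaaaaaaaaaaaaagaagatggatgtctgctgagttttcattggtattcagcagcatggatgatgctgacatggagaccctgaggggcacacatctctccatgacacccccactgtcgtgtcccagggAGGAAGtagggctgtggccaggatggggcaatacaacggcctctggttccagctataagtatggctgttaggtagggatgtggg
Prtn3, chr10:79879417-79879666, plus strand: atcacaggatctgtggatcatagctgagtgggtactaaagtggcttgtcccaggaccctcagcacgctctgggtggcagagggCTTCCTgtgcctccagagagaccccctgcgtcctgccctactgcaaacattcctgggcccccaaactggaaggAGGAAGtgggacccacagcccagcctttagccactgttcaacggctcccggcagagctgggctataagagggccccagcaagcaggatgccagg
Mpo, chr11:87793534-87793783, plus strand: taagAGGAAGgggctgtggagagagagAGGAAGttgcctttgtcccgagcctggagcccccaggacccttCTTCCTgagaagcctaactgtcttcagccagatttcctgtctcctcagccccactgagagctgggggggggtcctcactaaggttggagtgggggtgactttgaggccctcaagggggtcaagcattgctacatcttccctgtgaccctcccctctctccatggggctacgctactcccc
S100a8, chr3:90668821-90669070, plus strand: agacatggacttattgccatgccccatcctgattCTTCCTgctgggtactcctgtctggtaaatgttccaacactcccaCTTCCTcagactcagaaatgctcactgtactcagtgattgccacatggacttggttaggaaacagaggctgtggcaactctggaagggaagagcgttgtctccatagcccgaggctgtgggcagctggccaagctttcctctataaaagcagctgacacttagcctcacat
Camp, chr9:109849457-109849706, minus strand: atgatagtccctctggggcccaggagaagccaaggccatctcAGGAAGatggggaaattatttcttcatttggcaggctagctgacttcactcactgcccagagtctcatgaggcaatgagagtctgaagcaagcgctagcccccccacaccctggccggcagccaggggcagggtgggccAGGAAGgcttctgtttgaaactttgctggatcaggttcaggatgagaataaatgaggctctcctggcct
Lyz2, chr10:117282273-117282522, minus strand: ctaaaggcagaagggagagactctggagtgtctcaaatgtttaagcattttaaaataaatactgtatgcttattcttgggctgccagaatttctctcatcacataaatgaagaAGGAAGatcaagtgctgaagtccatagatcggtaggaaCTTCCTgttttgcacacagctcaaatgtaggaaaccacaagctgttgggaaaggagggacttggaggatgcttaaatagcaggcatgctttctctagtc
Lyz1, chr10:117292869-117293118, minus strand: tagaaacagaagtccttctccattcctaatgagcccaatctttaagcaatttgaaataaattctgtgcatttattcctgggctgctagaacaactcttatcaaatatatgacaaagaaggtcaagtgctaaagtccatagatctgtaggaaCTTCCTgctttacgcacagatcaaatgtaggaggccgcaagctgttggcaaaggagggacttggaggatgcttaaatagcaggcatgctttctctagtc

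The longer PU.1-type motif GAGGAAG, searched on both strands over all 300 bases, was present in 5 of the 10 granule promoters (Elane, Prtn3, Mpo, Ctsg and S100a8). It was present in 13.6% of all 32851 promoters of that length. The shorter GAGGAA, which lies within GAGGAAG, was present in 6 of 10 (Ltf in addition), against 28.3%. AGGAAG, which overlaps both and was picked after these sequences were seen, was present in 9 of 10, all but S100a9, against 35.4%. Among the protein-coding genes whose promoter held a summit at day 4, 28.6% had GAGGAAG, against 15.5% of all protein-coding genes with a promoter. These shares were 45.0% against 30.5% for GAGGAA and 56.6% against 37.8% for AGGAAG. The RUNX motif TGTGGT was present in 4 of 10 (Ctsg, Lyz2, Ltf and S100a9), against 16.8%. The C/EBP motif TTGCNNAA was present in 3 of 10 (Lyz1, Ltf and S100a9), against 10.8%. The Ctsg promoter summits lay 120.5 and 21.5 bases from the centre of TGTGGT at days 4 and 8. The Ltf summits lay 28.5 and 41.5 bases from that of TTGCNNAA at day 12 and in Day 12- 12. From TGTGGT they lay 70.5 and 57.5 bases. At days 4 and 8 the S100a9 summits lay 69.5 and 63.5 bases from TTGCNNAA and 101.5 and 107.5 from TGTGGT. Some summits thus lay nearer to a RUNX or C/EBP match than to AGGAAG. A match describes letters and does not show a bound site.

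The 5 promoters with GAGGAAG held 17 called summits over the 7 libraries, and 12 of these lay within 30 bases of the centre of the nearest match. The others were both Ctsg summits, 2 of the 4 at S100a8 and the day 12 summit of Elane. Because the motif was looked for in windows that were themselves called, and 300 bases leave little room, this closeness is a description of these promoters.

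**Figure D2:**
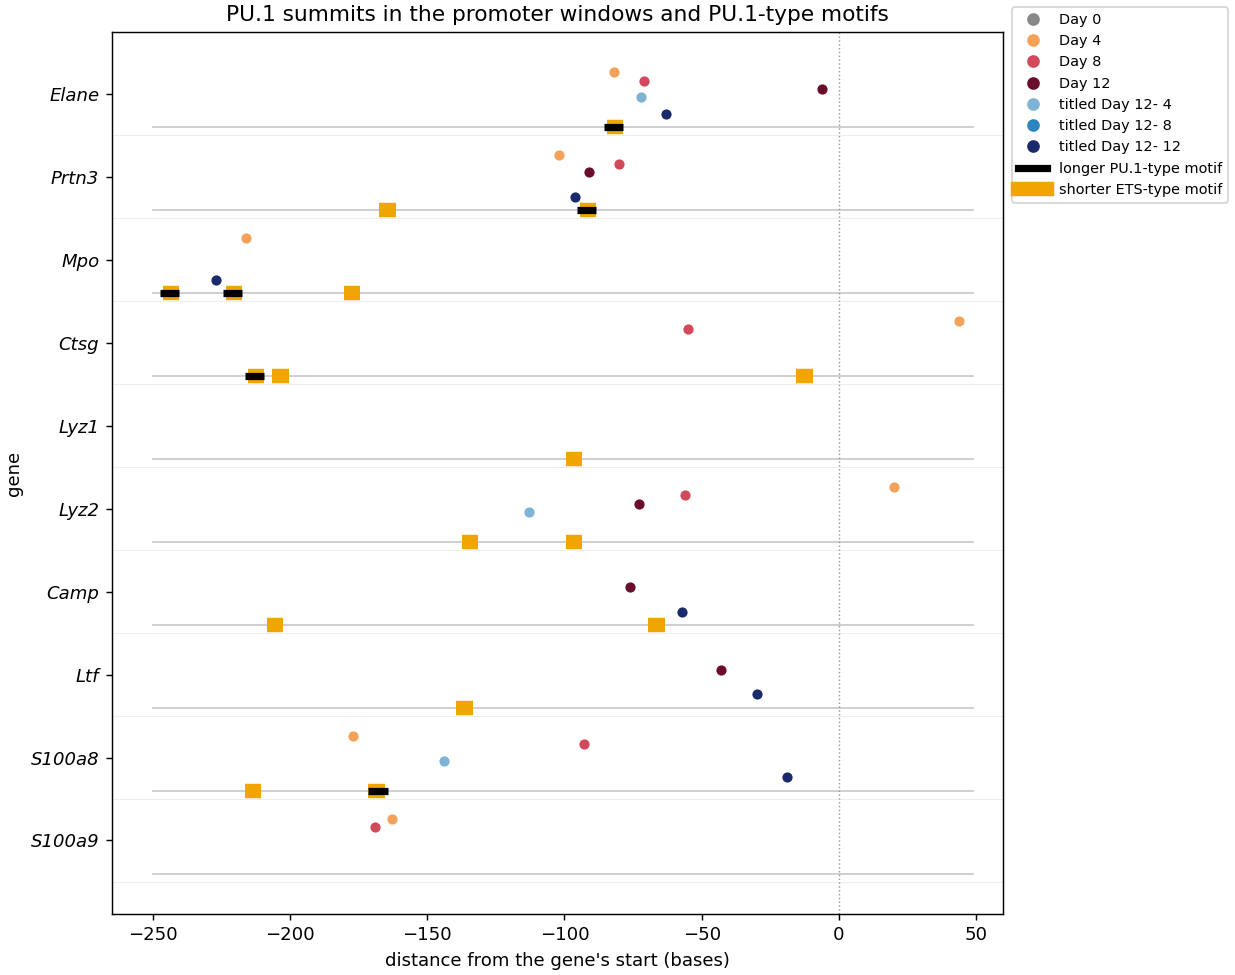
Called PU.1 summits (dots, coloured by library) in the promoter window of each granule gene, by distance from the gene's start in bases; black marks are the longer PU.1-type motif GAGGAAG and orange marks the shorter AGGAAG, on either strand. The dots of Elane and Prtn3 cluster at the black mark near 82 and 92 bases before the start, except the day 12 dot of Elane, 6 bases before it, and Lyz1 has no dot.

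Elane (chromosome 10, 79886312 to 79888216) encodes neutrophil elastase. Its promoter site (79886230 to 79886306) was called in 5 of the 7 libraries, a number that no granule site exceeded. The scores were 55.9, 57.3 and 137 at days 4, 8 and 12, then 6.48 in Day 12- 4 and 23.4 in Day 12- 12. There was no call at day 0 or in Day 12- 8. Its GAGGAAG lies 85 to 79 bases before the start, the summit fell on its centre at day 4, and summits lay 11 bases away at day 8, 10 in Day 12- 4 and 19 in Day 12- 12. At day 12 the summit was 76 bases from it. The other 18 sites assigned to Elane had highest scores of 23.9 or less, and 15 of the 19 were nearer to Cfd, the complement factor D gene, or to Med16, a Mediator subunit gene.

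Prtn3 (chromosome 10, 79879667 to 79883174), which lies just before Elane and encodes proteinase 3, had its highest-scoring site in its promoter as well (79879565 to 79879587). The scores were 47.6, 34.2 and 169 at days 4, 8 and 12, and 25.8 in Day 12- 12. No call was made there at day 0, in Day 12- 4 or in Day 12- 8. The match GAGGAAG lies 95 to 89 bases before the start, and the 4 summits lay 10, 12, 1 and 4 bases from its centre at days 4, 8 and 12 and in Day 12- 12. In the day 12 list this site ranked 4023 of 86271 and the Elane promoter site 5079, the 2 highest ranks of any granule site in that list. A second site 1704 bases before the start (79877891 to 79877963) was called in the same 4 libraries, with scores of 29.3, 14.6 and 66.4 at days 4, 8 and 12 and 20.9 in Day 12- 12. One more, 2376 bases before the start (79877291 to 79877388), was called in these 4 too, at 38.7, 14.8 and 9.15 at days 4, 8 and 12 and 11.1 in Day 12- 12. The order of these neighbouring sites thus differed between lists, since the site at 2376 bases outscored the one at 1704 bases at day 4 and scored lower at day 12.

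The single granule summit at day 0 (79874460, score 8.57) lay 5.21 kb before the start of Prtn3 and inside the neighbouring gene Plppr3. It was called again only in Day 12- 8, at position 79874543, with a score of 5.20. By nearest gene, no granule gene had a site at day 0.

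Mpo (chromosome 11, 87793784 to 87804412) encodes myeloperoxidase, the enzyme that makes hypochlorous acid. Its highest-scoring site lay 4.41 kb past the end of the gene (87808780 to 87808830), inside the neighbouring lactoperoxidase gene Lpo. That site scored 157, 77.0 and 22.7 at days 4, 8 and 12, then 5.48 in Day 12- 4 and 4.25 in Day 12- 12. It ranked 2373 of 57424 at day 4 and 19479 of 86271 at day 12. A second site inside Lpo (87811638 to 87811658) scored 67.3, 24.3 and 18.1 at days 4, 8 and 12 and 4.89 in Day 12- 12. The Mpo promoter site (87793557 to 87793568) was called only at day 4, at 10.3, and in Day 12- 12, at 22.2. Both its summits lay within 6 bases of the centre of a GAGGAAG that lies 224 to 218 bases before the start. Inside the gene 8 further sites were called, with highest scores from 4.85 to 14.4, and Day 12- 12 called 7 of the 8. At 3475 bases before the start, a site was called at day 4, at 22.5, and a neighbouring site (87790426 to 87790462), just beyond the merging distance, at day 8, at 7.80, and in Day 12- 12, at 4.91.

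Ctsg (chromosome 14, 56099885 to 56102574) encodes cathepsin G and had the lowest scores of the azurophil genes. It had 2 summits at day 4, 1 at day 8 and 1 at day 12, with scores between 3.76 and 7.80, and no call in the other 4 libraries. The nearest day 0 summit lay 218 kb from its start. Its promoter holds GAGGAAG 216 to 210 bases before the start, and the 2 promoter summits lay 257 and 158 bases from it, at days 4 and 8.

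The lysozyme genes Lyz1 (chromosome 10, 117287795 to 117292868) and Lyz2 (117277541 to 117282272) are neighbouring copies, and lysozyme cleaves bacterial cell walls. Lyz2 is the copy known for its expression in macrophages and neutrophils, and Lyz1 that of Paneth cells in the intestine. Their promoter windows matched at 254 of 310 aligned positions (81.9%). How reads that fit both copies were placed was not given in the sources used here, so the split between them is uncertain.

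Lyz2 had its highest-scoring site at its start (117282252 to 117282385). It scored 44.7, 17.4 and 8.43 at days 4, 8 and 12 and 4.22 in Day 12- 4, and was not called in the other 3 libraries. Lyz1 had no summit near its start, the nearest day 4 summit being 4.42 kb away, inside the gene toward its 3′ end (117288393 to 117288463). This internal site was the higher of the pair, with scores of 141, 69.0 and 11.6 at days 4, 8 and 12, and had no call in any library titled knockdown. Another Lyz1 site, 8.95 kb before the start (117301816 to 117301819), was called at day 8, at 49.2, and at day 12, at 25.2. Both promoters hold CTTCCT 99 to 94 bases before the start, and Lyz2 has a second match, AGGAAG, 137 to 132 bases before it that Lyz1 lacks. The Lyz2 promoter summits shifted along this stretch, lying 116.5, 40.5 and 23.5 bases from the centre of the shared match at days 4, 8 and 12 and 16.5 in Day 12- 4. Lyz2 too had a site inside the gene near its 3′ end (117277972 to 117278046), which scored 12.3 at day 4, 3.76 at day 12 and 3.55 in Day 12- 12.

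Ltf (chromosome 9, 111019292 to 111042766) encodes lactoferrin, an iron-binding protein of specific granules. A site 3.66 kb past its end (111046363 to 111046424) had the highest score of all granule sites. The scores were 278, 174 and 48.6 at days 4, 8 and 12, then 33.4 in Day 12- 4 and 28.1 in Day 12- 12, with no call at day 0 or in Day 12- 8. It ranked 798 of 57424 at day 4, 980 of 33962 at day 8 and 11796 of 86271 at day 12, then 1424 of 9868 in Day 12- 4 and 5117 of 148415 in Day 12- 12. These ranks were the top 1.39, 2.89 and 13.7% of the lists at days 4, 8 and 12, and the top 14.4% and 3.45% in Day 12- 4 and Day 12- 12. Such a percentage also depends on the length of the list, so these values do not order the libraries by binding. Its 5 summits lay within 61 bases of each other. The Ltf promoter itself was called at day 12, at 6.31, and in Day 12- 12, at 5.79. The other sites were low, with highest scores of 10.3 or less, and Day 12- 12 alone called 7 of the 13 Ltf sites.

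Camp (chromosome 9, 109847377 to 109849456) encodes the cathelicidin precursor, also of specific granules. Its highest-scoring site was the promoter (109849513 to 109849532), called at day 12, at 19.996, and in Day 12- 12, at 20.8. Both summits lay 9.5 bases from the centre of an AGGAAG that lies 69 to 64 bases before the start. At day 4 a site 265 bases before the start scored 9.32, and day 8 had no Camp site. By highest score at day 4, Ltf thus stood 1 and Camp 9 among the 10 members, though both encode specific granule proteins.

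S100a8 (chromosome 3, 90669071 to 90670034) had its highest-scoring site in the promoter (90668894 to 90669052), at 106 at day 4 and 72.0 at day 8. The site was called again in Day 12- 4, at 13.4, and in Day 12- 12, at 12.6, and was not called at day 12. At day 12 the sole S100a8 summit lay 1753 bases before the start, with a score of 8.43. The GAGGAAG of this promoter, on the opposite strand, lies 171 to 165 bases before the start, and the summits lay 9, 75, 24 and 149 bases from its centre at days 4 and 8 and in Day 12- 4 and Day 12- 12. Another match to the shorter GAGGAA, on the same strand, lies 36 to 31 bases before the start. From its centre these summits lay 143.5, 59.5, 110.5 and 14.5 bases, in the same order. The 4 summits of this merged site spread over 158 bases, so they may not be 1 binding position.

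S100a9 (chromosome 3, 90692630 to 90695721), the partner subunit, was called at days 4 and 8 only. Its promoter site (90695884 to 90695890) scored 26.9 at day 4 and 13.0 at day 8. A site 5.59 kb past the gene's end (90687040 to 90687044) scored 20.3 at day 4 and 17.7 at day 8. The nearest day 0 summit lay 230.2 kb from its start and the nearest summit of Day 12- 8 lay 204.8 kb away.

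**Figure D3:**
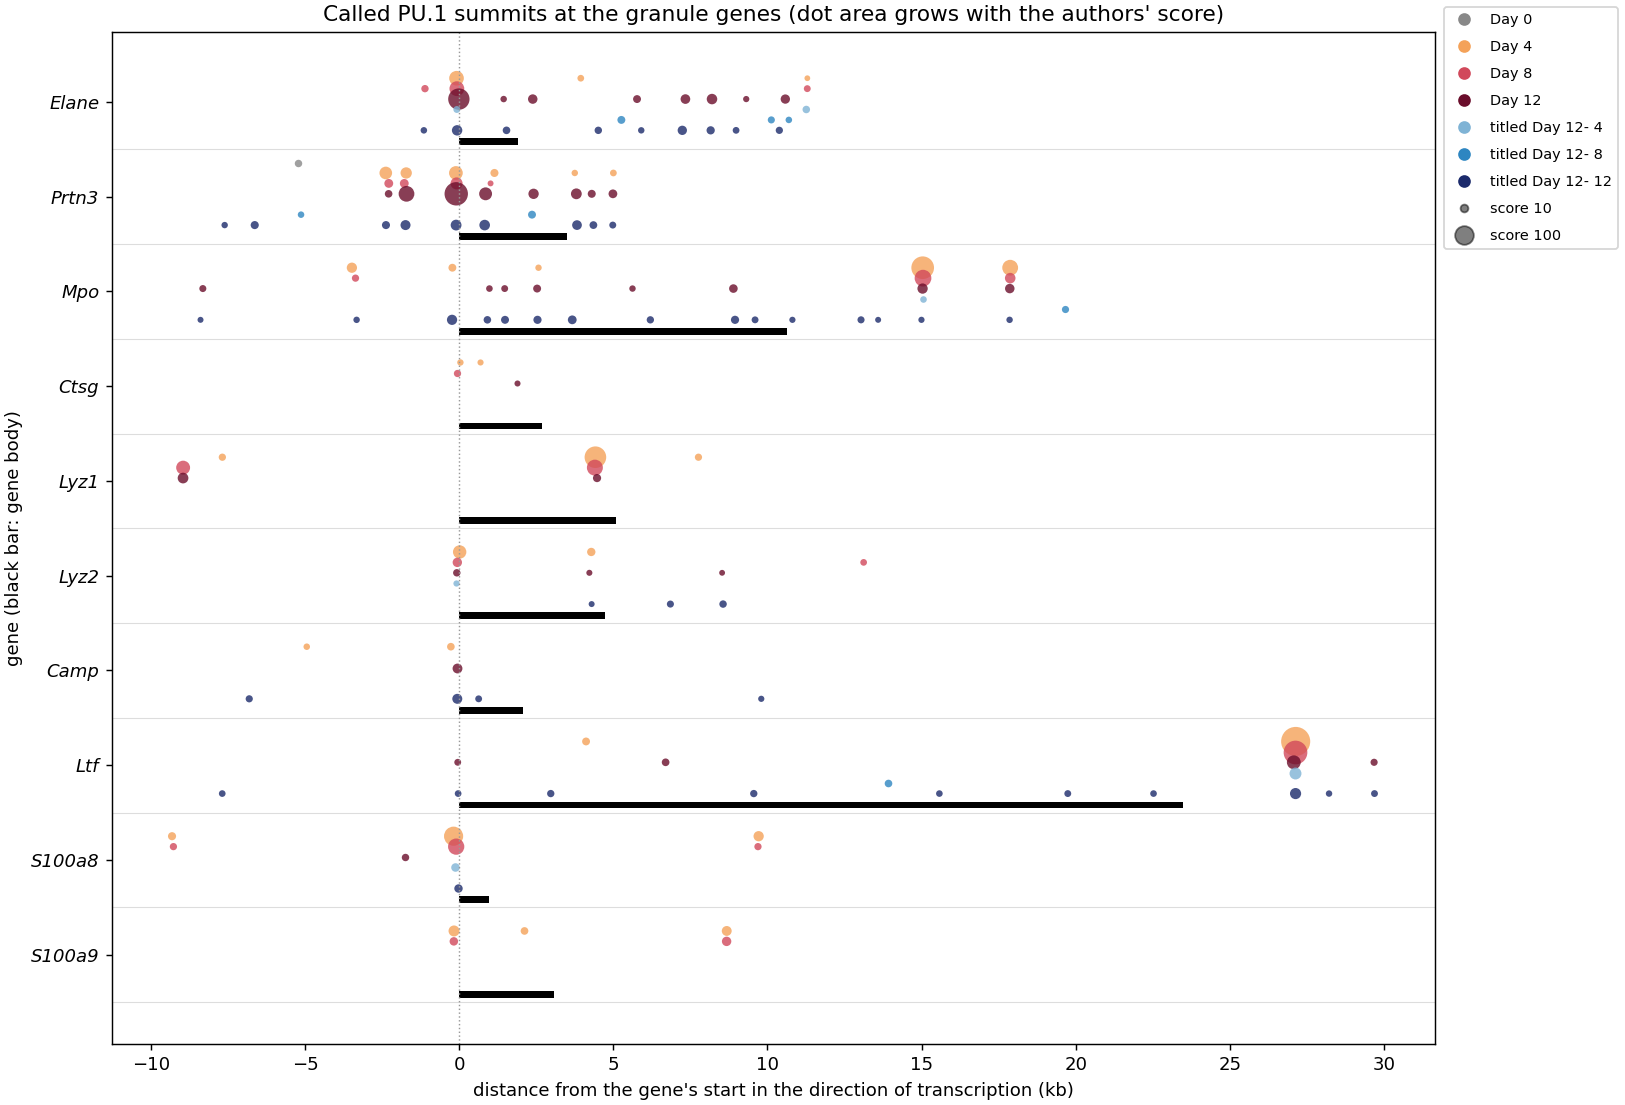
Every called summit at the granule genes, by distance from the gene's start in kb along the direction of transcription; black bars are gene bodies, colours are libraries and dot area grows with the authors' score. The largest dots lie at the starts of Elane, Prtn3 and S100a8, past the ends of Mpo and Ltf and inside Lyz1.

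Within a list, the members could be ordered by their highest assigned score, and this order differed between days 4 and 12. At day 4 it ran from Ltf (278), Mpo (157), Lyz1 (141) and S100a8 (106) to Elane (55.9), Prtn3 (47.6), Lyz2 (44.7), S100a9 (26.9), Camp (9.32) and Ctsg (4.80). At day 8 Ltf (174), Mpo (77.0), S100a8 (72.0) and Lyz1 (69.0) were again the first 4. At day 12 the first places went to Prtn3 (169) and Elane (137), followed by Ltf (48.6), Lyz1 (25.2), Mpo (22.7) and Camp (19.996). The Mpo scores at days 4, 8 and 12 came from its site inside Lpo. At sites with Mpo as the nearest gene, the highest scores were 22.5, 7.80 and 13.5 at these days. In Day 12- 4 the first were Ltf (33.4), S100a8 (13.4) and Elane (8.82, at a site nearer to Med16), and in Day 12- 12 Ltf (28.1), Prtn3 (25.8), Elane (23.4) and Mpo (22.2). Neighbours in these orders have no replicate spread to be judged by.

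**Figure D4:**
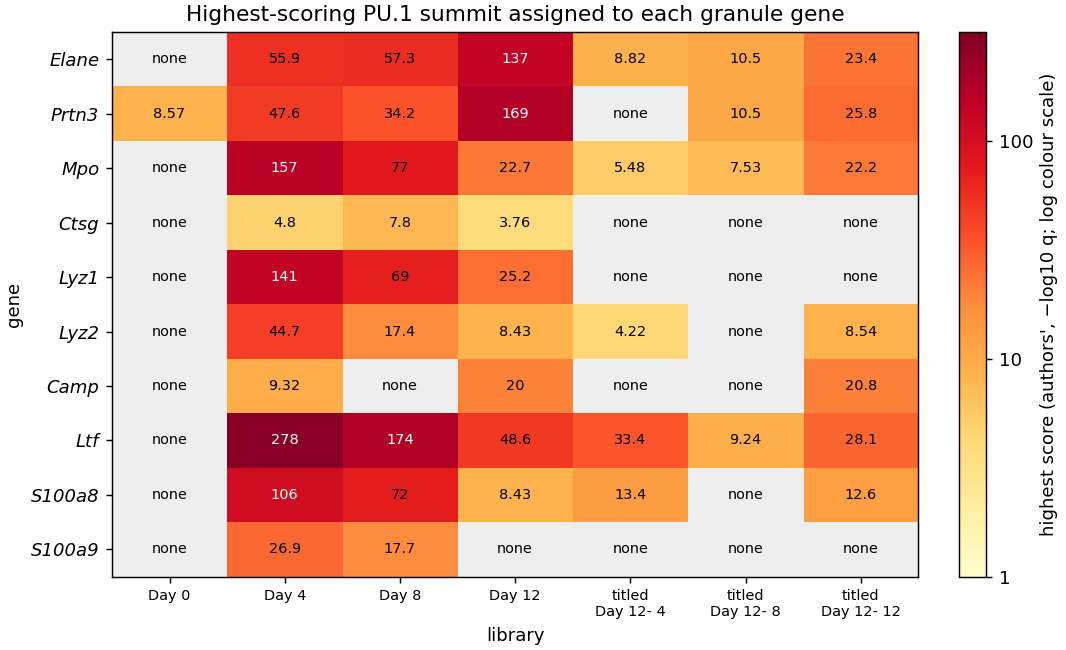
Highest score of a summit assigned to each granule gene in each library (authors' score, −log10 q; log colour scale; grey, no summit). The darkest cells are Ltf at days 4 and 8, Mpo, Lyz1 and S100a8 at day 4, and Prtn3 and Elane at day 12, and the day 0 column has 1 entry.

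In the day 0 and Day 12- 8 lists no member had its nearest summit at its start. At day 0 the distance from a member's start to the nearest summit ran from 5.21 kb at Prtn3 to 230.2 kb at S100a9. In Day 12- 8 it ran from 2.37 kb at Prtn3 to 204.8 kb at S100a9, in a list of 21377 summits. In Day 12- 4, a list of 9868 summits, it ran from 0.07 kb at Elane to 306.6 kb at Ctsg. Such distances over all genes are not given here. The 7 granule summits of Day 12- 8 scored between 5.20 and 10.5, and none of them lay in a promoter window. Their median score was 7.53, against 7.16 for the whole list.

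Over all members the windows held 153 summits, which merged at 100 bp into 88 sites, 28 of them inside a granule gene and 60 nearer to their granule gene than to any other protein-coding gene. The summits numbered 1, 31, 21 and 36 at days 0, 4, 8 and 12, and 6, 7 and 51 in Day 12- 4, Day 12- 8 and Day 12- 12. Of the 88 sites, 3 (3.41%) were called in 5 libraries, those at the Elane promoter and past the ends of Mpo and Ltf, and none in more. Among all 246675 merged sites, 2.72% were called in 5 or more. A further 24 (27.3%) were called in Day 12- 12 alone, against 41.5% of all merged sites. Days 4, 8 or 12 shared 30 granule sites (34.1%) with the libraries titled knockdown, against 19.9% of all merged sites. At those days and in none of these 3 libraries, 28 (31.8%) were called, against 31.5%. In these 3 libraries and not at those days, 30 (34.1%) were called, against 47.2%, and 1 of the 30 was also called at day 0. The shares of all merged sites cover the whole genome, including sites far from genes, while the granule sites lie in gene windows by choice. Shares limited to sites near genes are not given here, so these differences cannot be read as particular to granule genes.

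The 20 other granule genes were also listed for their proteins, with earlier results of these data known. They had a site in 7, 20, 17 and 19 cases at days 0, 4, 8 and 12, against 36.8, 69.8, 61.7 and 77.1% of all genes. The counts were 8, 9 and 19 of 20 in Day 12- 4, Day 12- 8 and Day 12- 12, against 34.8, 61.8 and 78.9%. The day 0 and Day 12- 4 counts were near the share of all genes. By group, days 4, 8 and 12 gave 5, 4 and 4 of the 5 azurophil granule partners, 8, 7 and 8 of the 8 specific granule genes and 7, 6 and 7 of the 7 gelatinase granule and secreted protein genes. In Day 12- 4, Day 12- 8 and Day 12- 12 the counts were 3, 5 and 5 for the azurophil partners, 3, 2 and 7 for the specific granule genes, and 2, 2 and 7 for the last group. Their median highest score was 61.5, 33.6 and 63.6 at days 4, 8 and 12, so at day 12 it lay above that of all genes (33.4) while that of the 10 members (21.4) lay under it. The 4 highest at day 12 were Bpi, an endotoxin-binding protein, at 442, Hp, haptoglobin, at 421, Olfm4, olfactomedin 4, at 239, and Ctsc, the protease that activates the granule serine proteases, at 192. Their day 4 scores were 69.2, 85.4, 162 and 130.1. Bpi, Hp and Ctsc had no day 0 site, and Olfm4 had 1, at 6.30. All 20 genes had a site in at least 1 library. Serpinb1a, an inhibitor of elastase and its relatives and the one gene of the list with no day 12 site, named after its values were seen, had 2 sites at day 4, of 6.52 at most.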

How the data were processed

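The authors deposited 1 list of peak summits for each of 7 PU.1 ChIP-seq libraries. The submitters' processing notes name MACS2 and mm10. For the aligner, MACS2 version, control, depth and any pooling of libraries, the answer is not given in the sources used here. The deposited score was read as a −log10 q-value, because the lowest score in all files, 1.30104, lies just above 1.30103, that of a q-value of 0.05. Libraries were grouped by title.

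Genes and promoters came from RefSeq tables for GRCm38.p6. All 10 members, their promoters and the 20 other granule genes matched. The tables have no exons, so sites were not placed in exons or introns, and no genome sequence was used for sites outside promoters. Summits of all lists that chained together at steps of up to 100 bp were merged into 1 site. Windows, merging and counting were checked on simulated positions. Python 3.11.15, numpy 2.4.6, pandas 2.3.3, biopython 1.88 and matplotlib 3.10.9 were used. Every time point had 1 library, so no test was run. Members and gene lists were chosen with earlier results of these data known. Sites named were each member's highest-scoring site, those called in 5 or more libraries, and others chosen after their values were seen. Of the other granule genes the 4 highest at day 12 were named.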

Additional observations from a re-analysis of the deposited data

How the results depend on the processing

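Counts of granule genes with a site are given here for days 0, 4, 8 and 12 and then for the libraries titled Day 12- 4, Day 12- 8 and Day 12- 12. They were 1, 10, 9, 9, 7, 4 and 8 as reported. With a 5 kb window they were 0, 10, 9, 9, 6, 3 and 7, with 20 kb 2, 10, 10, 9, 8, 4 and 10, and with the gene body plus 1 kb 0, 10, 7, 8, 3, 2 and 7. The shares of all genes under these windows are not given here, so these counts cannot be set against them. Summits scoring at least 10 gave 0, 8, 8, 7, 2, 2 and 6, and those scoring at least 20 gave 0, 8, 7, 5, 1, 0 and 5. The shares of all genes were 4376 of 21887 genes at day 0 and then 57.8, 52.1, 65.6, 21.4, 32.9 and 52.6% at 10 and 7.80, 45.9, 40.1, 56.8, 12.7, 15.6 and 30.1% at 20. At 10 and at 20 the day 12 count was near its share, and at 20 the Day 12- 12 count lay above its own. Lists of equal length gave 1, 5, 7, 2, 5, 3 and 5, or 1, 4, 5, 2, 4, 3 and 5 with shared summits given once, a setting added later. With each summit given to the nearer member the counts were 1, 10, 9, 9, 5, 4 and 7, and the median highest score, also added later, was 51.8 in place of 81.1 at day 4 and 2.11 in place of 4.85 in Day 12- 4. Keeping summits whose nearest protein-coding gene was the member, an alternative added after the data were seen, gave 0, 10, 9, 9, 4, 2 and 7. No share of all genes is given here for that setting either. The cause of these shifts was not tested, beyond fewer summits or smaller windows by construction.

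The 88 merged sites became 104, 80 and 75 with merging at 50, 200 and 500 bp, 62 with a 5 kb window and 150 with 20 kb. They became 38 and 21 at scores of at least 10 and 20, and 17 in lists of equal length. Among genes no longer than the longest member, the share with a site was 29.2, 60.9, 53.0 and 69.5% at days 0, 4, 8 and 12, and 31.4, 54.3 and 72.0% in the 3 other libraries. Promoters counted within 500 bp of the start, also added later, gave 8 in place of 7 at day 4 and no other change in the members. The share of all genes with such a promoter was then 22.5 and 50.6% at days 4 and 12, and 42.1 and 37.8% in Day 12- 8 and Day 12- 12, so the 5 of 10 at day 12 stood at that share. Sequencing depth was unknown, so a missing call does not show a site without PU.1.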
